A study of Mus musculus with 128 samples.

Results

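The genes of 9 cell junction proteins were followed: 4 claudins (Cldn1, Cldn2, Cldn3 and Cldn12), occludin (Ocln) and the junctional adhesion molecule JAM-A (F11r) of the tight junction, the cytoplasmic plaque proteins ZO-1 (Tjp1) and cingulin (Cgn), and E-cadherin (Cdh1) of the adherens junction. They were listed by name and are 9 of the 40824 genes in the RNA table. All 9 were measured and all 9 passed the filter on low counts in each of the 5 statistical fits. Tight junctions seal the bile canaliculus, the narrow lumen that neighbouring hepatocytes form between them, against the blood side. Claudins form the strands of the seal, some closing it and some, such as Cldn2, forming pores for small cations and water. Tjp1 and Cgn tie the strands to actin, and Cdh1 holds the neighbouring cells together just below the seal. In the adult liver, Cldn2 is known as a pericentral gene and Cdh1 as a periportal one, along the axis from portal to central vein.

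The study measured RNA by Smart-seq3xpress, a plate-based single-cell method, in mouse liver cells labelled hepatoblasts or hepatocytes, and open chromatin by ATAC-seq. Its RNA libraries, in 49 groups, held 7 to 133 cells and 4506130 to 86188713 reads each, 4264 cells in all. Reads were summed over the cells of a library. A summed level does not tell fewer cells with a transcript from less RNA per cell, so for some results the share of cells with a read stands beside it. These shares were not thinned to equal depth and are descriptions. No label says that libraries of a group came from separate animals, so the p-values measure the spread between these libraries, which may be technical.

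Knockout, control and wild-type in vivo groups, each of 2 libraries unless stated, entered the comparisons before adulthood. The knockouts on a C57BL/6 background were Pard3HMKO (Foxa3-Cre with Pard3-fl/fl, from E11.5 to P14), YapHMKO (Foxa3-Cre with Yap-fl/fl, at E15.5 and E17.5) and both together at E17.5, plus Pard3HMKO made with Alfp-Cre at E17.5. Their controls, Pard3WT and YapWT, carried the same Cre and no floxed allele. Wild-type B6C3F1 embryos (C57BL/6XC3H) covered E11.5 to E19.5, with 3 libraries at E15.5 and at E16.5. Pard3 encodes a polarity scaffold of the junction region, and Yap a transcriptional coactivator of the Hippo pathway. Foxa3 sequences drive Cre in the endoderm, and Alfp sequences, from albumin and alpha-fetoprotein, drive it in the liver epithelium. E15.5 liver was also cultured for 2 days with PD, U0126, TPPB, TPPB with PD, or no compound, from the Foxa3-Cre lines. U0126 is a MEK inhibitor and TPPB a protein kinase C activator, the labels do not spell out PD, and they give no doses. All adult (P60) mice were Pard3-fl/fl. Those called Pard3HMKO are labelled as injected with AAV-Tbg-Cre, a viral vector with a hepatocyte promoter, with the time 7d, and Pard3WT as control. They were sampled at d0, d2 and d7 of PHx, the usual abbreviation of partial hepatectomy, with 2, 2 and 6 Pard3HMKO and 2, 2 and 4 Pard3WT libraries.

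The labels were checked against the targeted genes. Yap1 had 0.186 and 4.19 CPM (read counts scaled to depth) in the E15.5 YapHMKO libraries, against 62.6 and 83.9 in YapWT, and 0.764 and 4.45 CPM in YapHMKO control cultures, against 109 and 103 in those of YapWT. At E17.5 it was not lower: 52.6 and 51.9 CPM in the libraries labelled YapHMKO against 30.8 and 35.4 in YapWT, and 43.4 and 44.9 in those labelled as double knockout against 28.8 and 32.7 in their controls. Pard3 counts cover the whole gene and check nothing about a deleted exon. Hepatocyte markers were present in every group. The E11.5 libraries of both Foxa3-Cre genotypes stood apart from the E11.5 B6C3F1 libraries, with a summed hepatocyte marker level of 10700 to 11760 CPM, against 50940 to 52470. Of all cells, 1680 (39.4%) held reads for at least 50% of a marker list of another cell type, and the results are also given without these marked cells where that ends a call. All 4264 cells, the marked ones included, also held reads for at least 50% of the hepatocyte list. A mark therefore does not show that a cell is of another type.

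The 3 claudins that moved most between groups differ in their promoters, which are printed from RefSeq (GRCm38.p6) as 250 bases before to 50 after the start site, in the direction of the gene. Capitals mark matches, on either strand, to 5 short motifs. They are GTTAAT, known as a half-site of the hepatocyte factor HNF1, and GGAATG, known as the motif of the TEAD partners of Yap. The others are CAGGTG, a box of the Snail type, the promoter box TATAAA, and TGANTCA, the motif of the AP-1 factors.
Cldn1 (chr16:26371790-26372089, minus strand): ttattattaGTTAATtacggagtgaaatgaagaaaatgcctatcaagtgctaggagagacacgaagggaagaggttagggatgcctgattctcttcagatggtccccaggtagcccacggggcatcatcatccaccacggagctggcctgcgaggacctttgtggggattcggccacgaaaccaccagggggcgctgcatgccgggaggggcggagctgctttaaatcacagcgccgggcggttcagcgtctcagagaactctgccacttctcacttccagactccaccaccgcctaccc
Cldn2 (chrX:139800558-139800857, plus strand): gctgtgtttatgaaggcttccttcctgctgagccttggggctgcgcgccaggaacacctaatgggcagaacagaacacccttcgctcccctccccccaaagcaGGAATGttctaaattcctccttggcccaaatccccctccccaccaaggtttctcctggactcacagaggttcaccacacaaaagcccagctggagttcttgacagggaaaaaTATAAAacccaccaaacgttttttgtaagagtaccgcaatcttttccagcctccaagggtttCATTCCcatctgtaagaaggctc
Cldn3 (chr5:134985964-134986263, plus strand): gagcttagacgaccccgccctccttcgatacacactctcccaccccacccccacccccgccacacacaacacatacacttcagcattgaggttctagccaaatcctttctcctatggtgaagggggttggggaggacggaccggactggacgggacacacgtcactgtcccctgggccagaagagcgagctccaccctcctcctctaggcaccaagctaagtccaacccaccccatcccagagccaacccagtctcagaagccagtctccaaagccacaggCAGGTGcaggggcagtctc
In Cldn1 the GTTAAT match began at position −241 from the start site. Cldn2 held GGAATG from −147 and on the opposite strand from 28, and TATAAA from −35. Cldn3 held CAGGTG from 32. None of the 3 held TGANTCA. Over all 27025 promoter windows of this length, 7.2% held GTTAAT, 14.6% GGAATG, 20.0% CAGGTG, 14.2% TATAAA and 7.93% TGANTCA. The windows had 56.0%, 51.3% and 60.7% G or C for Cldn1, Cldn2 and Cldn3, and 15, 5 and 9 CG pairs, beside medians of 52.7% and 7 pairs over all windows. A match describes letters and shows no binding.

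Levels were compared between genes only per length, as CPM divided by the transcript's relative length. In E11.5 B6C3F1 liver the JAM-A gene F11r made up 40.9% of the summed length-scaled level of the 9 genes, ahead of Cgn with 23.0% and Ocln with 11.8%. By E17.5 Cldn1 was first with 43.4%, and at P14 in Pard3WT Cldn3 was first with 32.2%. In the adult Pard3WT liver at PHx d0 Cldn3 held 42.3%, F11r 25.4% and Cldn2 13.1%. In Pard3WT control cultures F11r alone held 51.9%. F11r was thus among the first 2 in each of these groups, while the leading claudin differed.

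Across all RNA libraries Cldn1 spanned 0.812 to 530.0 CPM, with its highest group mean in E19.5 Pard3WT and its lowest in Pard3WT cultures with TPPB. Cldn2 had no read in 8 libraries and Cldn3 in 6, and their highest libraries reached 237 and 175 CPM, both at PHx d2. The other 6 genes, like Cldn1, were read in every library. F11r ranged from 61.7 CPM in E11.5 Pard3WT to 455 CPM in a YapHMKO control culture. Tjp1 ranged from 12.7 to 78.9 CPM, Cgn from 10.4 to 287, Cdh1 from 8.88 to 118, Ocln from 4.31 to 87.8 and Cldn12 from 9.04 to 63.4.

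In wild-type B6C3F1 liver, Cldn1, Cldn2 and Cldn3 rose with embryonic age. Cldn1 had 30.9 and 36.7 CPM at E11.5, 138 and 105.8 at E14.5, 318 and 322 at E17.5 and 308 and 280.3 at E19.5. Over the 18 libraries it rose by a log2 slope of 0.40 ± 0.04 per day (edgeR adjusted p = 1.51e-07). Cldn3 had 0 and 0.0429 CPM at E11.5 and 8.08 and 6.08 at E19.5 and rose by 0.77 ± 0.18 per day (adjusted p = 0.00148). Cldn2, with 0.153 and 0.343 CPM at E11.5 and 4.34 and 5.29 at E19.5, rose by 0.57 ± 0.19 per day (adjusted p = 0.0249). A slope does not show a steady rise. At E16.5 Cldn3 had 4, 2 and 0 reads and Cldn2 6, 0 and 33, and at E17.5 Cldn3 had 267 and 247 and Cldn2 409 and 322. Those libraries held 5770261 to 7965011 reads at E16.5 and 81364411 and 83486271 at E17.5. Without the E15.5 and E16.5 libraries all 5 members called for this trend stayed called. The Cldn2 call ended without E11.5 B6C3F1 WT replicate 1 (0.54, adjusted p = 0.0524) or for E19.5 against E11.5 (4.26, adjusted p = 0.142). The slopes of Cdh1, 0.16 ± 0.03, and F11r, 0.12 ± 0.03, were smaller and also passed (adjusted p = 0.000621 and 0.00151). Thus 5 of the 9 members were called, beside 35.5% of all genes. Ocln, Tjp1, Cgn and Cldn12 did not pass, with slopes between −0.07 and 0.13. The summed hepatocyte markers also moved with age, at 50940 to 52470 CPM at E11.5 and 247000 to 248300 CPM at E19.5, and their part in these slopes was not tested.

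**Figure D1:**
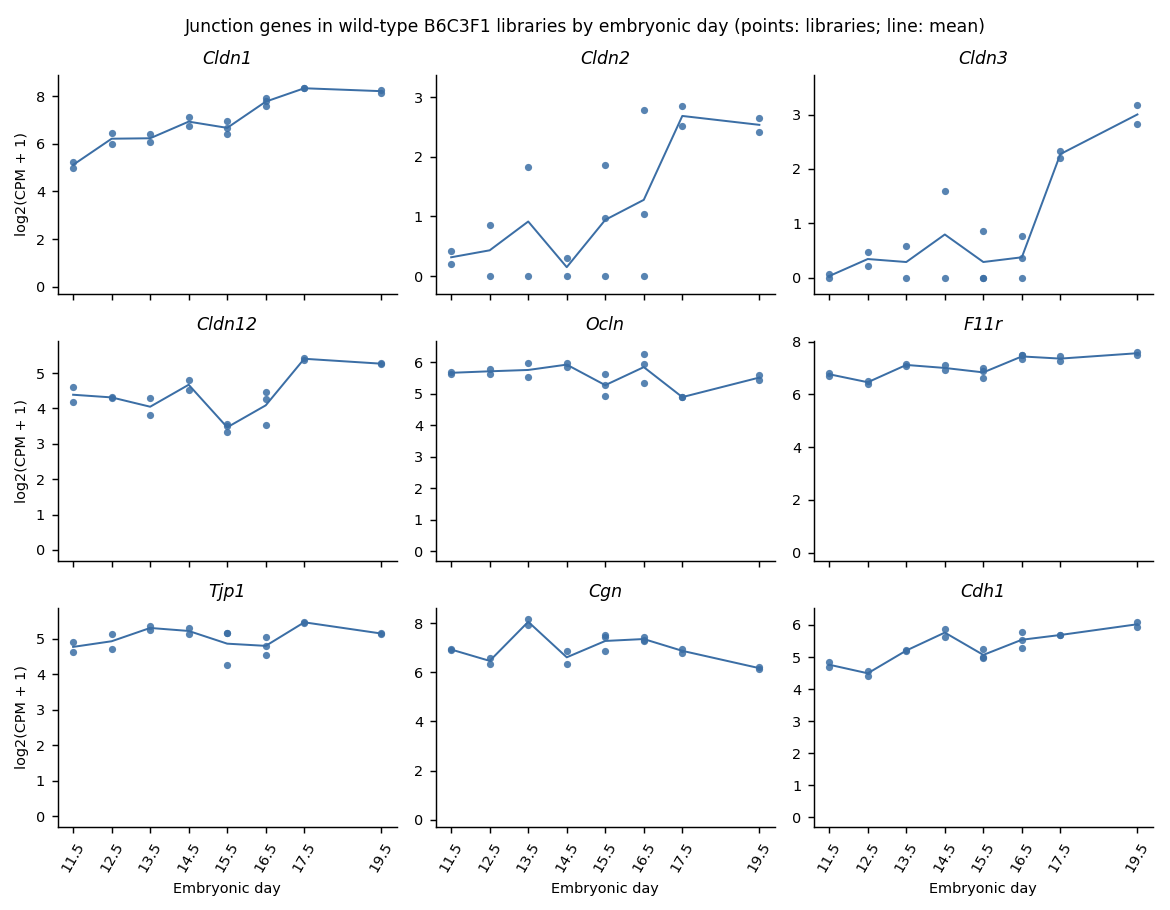
Level, as log2(CPM + 1), of the 9 members in each wild-type B6C3F1 library (points) against embryonic day, with lines through the mean of the log2 values of each day. Cldn1, Cldn2 and Cldn3 are higher at E19.5 than at E11.5, and at E19.5 Cldn1 sits at 308 and 280.3 CPM.

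Loss of Pard3 with Foxa3-Cre was first read at E11.5 and E13.5. No member was called at E11.5, beside 0.0754% of all genes, and Cldn1 had 13.4 and 12.8 CPM in Pard3HMKO and 7.87 and 10.9 CPM in Pard3WT. At E13.5 edgeR called no gene at all (0.0%), with 664 genes at an unadjusted p under 0.05, 1 of them a member, and DESeq2 called 3 genes. At E15.5 0.237% of genes were called and 1 member, Cldn2, with 1.29 and 3.57 CPM in Pard3HMKO and 0.0681 and 0 in Pard3WT (log2 fold change 5.74 ± 1.06, edgeR adjusted p = 0.00558). This rests on 105 reads against 2, a depth-scaled ratio of 60.1 with a 95% counting interval of 16.2 to 503.0, and the interval covers counting error only. In Pard3HMKO the reads came from 7.14% of 42 cells and 13.6% of 44 cells, and in Pard3WT from 2.44% of the 41 cells of 1 library. Cldn2 no longer passed without Pard3WT replicates 1 or 2 or Pard3HMKO replicate 2 (4.82 to 9.06, adjusted p from 0.105 to 0.116), without the marked cells (4.64, adjusted p = 1) or in a fit of the compared libraries alone (5.78, adjusted p = 0.889).

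At E17.5 the sealing claudins Cldn1 and Cldn3 were lower in Pard3HMKO livers and Cdh1 higher. Cldn1 had 176 and 134 CPM in Pard3HMKO, against 275 and 282 in Pard3WT (log2 fold change −0.84 ± 0.17, edgeR adjusted p = 0.000557). Cldn3 had 3.34 and 2.02 CPM in Pard3HMKO, against 9.81 and 9.03 in Pard3WT (−1.80 ± 0.54, edgeR adjusted p = 0.0195). For E-cadherin, Cdh1 had 55.9 and 54.8 CPM in Pard3HMKO and 34.3 and 30.8 in Pard3WT (0.77 ± 0.20, edgeR adjusted p = 0.00636). The Pard3HMKO and Pard3WT libraries did not overlap for any of the 9 members, the uncalled ones included. The share of all genes without overlap is not given here, so this count does not set the members apart. At E11.5, where no member was called, 5 of the 9 did not overlap either. Cldn1 was read in 100% of the cells of all 4 libraries, at medians of 354657 to 914046 reads per cell. Cldn3 was read in 26.5% and 19.4% of Pard3HMKO cells and in 40.0% and 33.3% of Pard3WT cells. Of the 9 members 3 were called, beside 14.9% of all genes. For Cldn1 the call was lost without the marked cells (−0.96, adjusted p = 0.256). Cldn3 missed the threshold without any 1 of the 4 libraries (−2.21 to −1.501, adjusted p from 0.055 to 0.23) or without the marked cells (−1.29, adjusted p = 0.817). The Cdh1 call ended without Pard3WT replicate 2 (0.69, adjusted p = 0.094) or without the marked cells (0.82, adjusted p = 0.225). Hepatocyte markers moved with these calls: 9 of 10 listed genes fell and 1 rose, with sums of 188500 to 263000 CPM in Pard3HMKO and 531100 to 566300 in Pard3WT. Stellate cell markers summed to 137 to 138 CPM in Pard3HMKO and 56.4 to 62.9 in Pard3WT, with 1 of 11 rising, and bile duct markers to 15.3 to 16.2 CPM in Pard3HMKO and 29.8 to 33.5 in Pard3WT, with 0 of 8 called. The part of these lists was not tested. The change of the Pard3HMKO effect between E17.5 and E15.5, beside 8.48% of all genes called, passed for Cldn1 (difference in log2 fold change −0.87 ± 0.24, edgeR adjusted p = 0.0187), Cldn3 (−2.99 ± 0.88, edgeR adjusted p = 0.0286) and Cldn2 (−6.88 ± 1.26, edgeR adjusted p = 0.000381). For Cldn1 this change was not called without E15.5 Pard3WT replicate 1, E15.5 Pard3HMKO replicate 1, E17.5 Pard3WT replicate 2 or E17.5 Pard3HMKO replicate 2 (−0.85 to −0.48, adjusted p from 0.0625 to 0.305), without the marked cells (−0.95, adjusted p = 0.742) or in a fit of the compared libraries alone (−0.84, adjusted p = 0.206). For Cldn3 this change was not called without E15.5 Pard3WT replicate 1, E15.5 Pard3HMKO replicates 1 or 2, E17.5 Pard3WT replicates 1 or 2 or E17.5 Pard3HMKO replicate 2 (−3.05 to −2.15, adjusted p from 0.0633 to 0.218), without the marked cells (−4.35, adjusted p = 0.695) or in a fit of the compared libraries alone (−2.88, adjusted p = 0.139). For Cldn2 this change was not called without the marked cells (−6.52, adjusted p = 0.119).

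With Alfp-Cre at E17.5 the same pair of sealing claudins was lower. Cldn1 had 252 and 255 CPM in Pard3HMKO, against 442 and 436 in Pard3WT (log2 fold change −0.76 ± 0.17, edgeR adjusted p = 0.00389), and Cldn3 had 3.2 and 1.88 CPM in Pard3HMKO, against 8.7 and 12.9 in Pard3WT (−2.06 ± 0.51, edgeR adjusted p = 0.0113). These were 2 of 9 members, beside 5.28% of all genes. Cldn1 no longer passed without AlfpCre Pard3HMKO replicate 2 (−0.77, adjusted p = 0.0531) or without the marked cells (−0.51, adjusted p = 1). For Cldn3 the call was lost without AlfpCre Pard3HMKO replicate 2 or AlfpCre Pard3WT replicate 2 (−1.74 to −1.72, adjusted p from 0.136 to 0.228), without the marked cells (−2.03, adjusted p = 1) or in a fit of the compared libraries alone (−2.07, adjusted p = 0.0593). Cdh1 did not pass, at 73.3 and 78.1 CPM in Pard3HMKO and 74.8 and 79.7 in Pard3WT. No member's effect was called as different between the 2 Cre lines, beside 2.91% of all genes, and the differences in log2 fold change were 0.08 ± 0.24 for Cldn1 and −0.26 ± 0.73 for Cldn3. At an edgeR unadjusted p under 0.05 stood 4 members and 2645 of 18572 genes. Cdh1 was called with Foxa3-Cre alone. Ocln was called in neither line, at 53.6 and 87.8 CPM in Alfp-Cre Pard3HMKO and 54.0 and 52.1 in its Pard3WT. With Foxa3-Cre at E17.5 it had 44.7 and 29.8 CPM in Pard3HMKO and 59.8 and 56.1 in Pard3WT. Hepatocyte marker sums were 200800 to 212100 CPM in Alfp-Cre Pard3HMKO and 366000 to 415000 in its Pard3WT.

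The Yap lines gave 1 member at E15.5 and 2 at E17.5. At E15.5 Cldn3 had 2.78 and 4.13 CPM in YapHMKO and 0.220 and 0.843 in YapWT (log2 fold change 2.76 ± 0.57, edgeR adjusted p = 0.0206), beside 0.302% of all genes called. Cldn3 missed the threshold without YapWT replicate 1 or YapHMKO replicate 2 (2.02 to 2.43, adjusted p from 0.122 to 0.245), without the marked cells (0.91, adjusted p = 1) or in a fit of the compared libraries alone (2.68, adjusted p = 0.725). At E17.5 Cldn1 had 146 and 145 CPM in the libraries labelled YapHMKO, against 250.2 and 252 in YapWT (−0.78 ± 0.17, edgeR adjusted p = 0.00141). Occludin was lower too, Ocln having 36.4 and 41.0 CPM in the libraries labelled YapHMKO, against 82.9 and 60.6 in YapWT (−0.88 ± 0.25, edgeR adjusted p = 0.0121), and 14.4% of all genes were called. The Cldn1 call ended without the marked cells (−0.89, adjusted p = 0.207). Of the cells labelled YapHMKO 27 of 30 and 32 of 33 were marked, so values without marked cells rest on few cells there. Ocln no longer passed without YapWT replicate 1 or YapHMKO replicates 1 or 2 (−0.97 to −0.63, adjusted p from 0.0537 to 0.228). Libraries labelled as double knockout had 138 and 142 CPM of Cldn1, against 262 and 269 in their controls (−0.91 ± 0.17, edgeR adjusted p = 0.000229). Their Cldn3 stood at 4.34 and 2.7 CPM, against 10.9 and 10.3 in the controls (−1.58 ± 0.53, edgeR adjusted p = 0.0424). Ocln fell (−0.76 ± 0.25, edgeR adjusted p = 0.0337) and Cdh1 rose (0.65 ± 0.20, edgeR adjusted p = 0.0227), making 4 of 9 members beside 14.6% of all genes. For Cldn1 the call was lost without the marked cells (−1.06, adjusted p = 0.167). Cldn3 missed the threshold without any 1 of the 4 libraries (−1.96 to −1.28, adjusted p from 0.0898 to 0.349) or without the marked cells (−1.02, adjusted p = 0.855). The Ocln call ended without Pard3WT YapWT replicate 1 or Pard3HMKO YapHMKO replicates 1 or 2 (−0.92 to −0.47, adjusted p from 0.0641 to 0.454) or without the marked cells (−0.80, adjusted p = 0.335). Cdh1 no longer passed without Pard3WT YapWT replicate 1 or Pard3HMKO YapHMKO replicates 1 or 2 (0.44 to 0.71, adjusted p from 0.0735 to 0.37) or without the marked cells (0.25, adjusted p = 0.847). Cldn1 was below its controls in each of the 4 E17.5 comparisons, and hepatocyte marker sums were also lower in each, at 233000 to 276100 CPM in the libraries labelled YapHMKO against 558300 to 573800 in YapWT and at 194800 to 224900 in those labelled as double knockout against 519300 to 521800. Stellate cell marker sums were higher, at 161 to 162 CPM in the libraries labelled YapHMKO against 90.5 to 115 in YapWT and at 126.4 to 152 in those labelled as double knockout against 64.5 to 70.1, with 1 of 11 markers rising in each, and the part of both lists was not tested.

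At E19.5 all 3 called members of the Foxa3-Cre Pard3 line were claudins, and all fell in Pard3HMKO. Cldn1 had 317 and 312 CPM in Pard3HMKO, against 530.0 and 497 in Pard3WT (log2 fold change −0.67 ± 0.17, edgeR adjusted p = 0.0115). The pore claudin Cldn2 had 2.19 and 2.68 CPM in Pard3HMKO, against 7.49 and 15.1 in Pard3WT (−2.18 ± 0.62, edgeR adjusted p = 0.0263). Cldn3 stood at 2.86 and 2.65 CPM in Pard3HMKO, against 7.01 and 10.4 in Pard3WT (−1.61 ± 0.51, edgeR adjusted p = 0.0493). The share of all genes called was 6.95%, and hepatocyte marker sums were 271800 to 282000 CPM in Pard3HMKO and 407000 to 411900 in Pard3WT. For Cldn1 the call was lost without Pard3HMKO replicates 1 or 2 or Pard3WT replicate 1 (−0.68 to −0.62, adjusted p from 0.0911 to 0.107) or without the marked cells (−0.59, adjusted p = 0.788). Cldn2 missed the threshold without Pard3HMKO replicates 1 or 2 or Pard3WT replicate 2 (−2.33 to −1.59, adjusted p from 0.146 to 0.279) or without the marked cells (−3.04, adjusted p = 0.333). The Cldn3 call ended without any 1 of the 4 libraries (−1.87 to −1.31, adjusted p from 0.0839 to 0.307), without the marked cells (−1.01, adjusted p = 0.996) or with every cell scaled to the same total (−1.69, adjusted p = 0.052). The Pard3HMKO effect was not called as different between E19.5 and E17.5 for any member, beside 3.61% of all genes.

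At P0 the called members were Cldn3, Cldn2 and F11r, all lower in Pard3HMKO. In P0 Pard3HMKO livers Cldn3 had 0.563 and 1.1 CPM, against 70.2 and 72.6 in Pard3WT (log2 fold change −6.44 ± 0.64, edgeR adjusted p = 2.74e-09). Cldn2 had 0.610 and 0.792 CPM in Pard3HMKO, against 29.2 and 17.6 in Pard3WT (−5.05 ± 0.74, edgeR adjusted p = 3.14e-06). F11r had 112 and 77.0 CPM in Pard3HMKO, against 194 and 186 in Pard3WT (−0.99 ± 0.16, edgeR adjusted p = 8.62e-06). The genotypes did not overlap for 7 of the 9 members, these 3 and 4 uncalled ones. The share of all genes without overlap is not given here, so this count does not set the members apart. By the test, 21.8% of all genes were called. Cldn3 was read in 3.33% and 16% of Pard3HMKO cells and in 91.4% and 91.7% of Pard3WT cells, at medians of 650552 to 761283.5 reads per cell. Cldn1 did not pass, at 183 and 192 CPM in Pard3HMKO and 242 and 241 in Pard3WT. Cldn3 no longer passed without the marked cells (−12.54, adjusted p = 0.0596). For F11r the call was lost without the marked cells (−0.52, adjusted p = 0.353). All 25 cells of Pard3HMKO replicate 2 were marked, so values without marked cells rest on replicate 1 in that group. Hepatocyte markers moved with the calls, 9 of 10 falling, with sums of 158900 to 182600 CPM in Pard3HMKO and 314400 to 330800 in Pard3WT. Of the 16 myeloid markers tested 8 fell (97.0 to 136 CPM in Pard3HMKO, 283 to 1496 in Pard3WT), and neither list's part was tested.

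By P14 no claudin was called and the members that passed were higher in Pard3HMKO. Cdh1 had 118 and 96.7 CPM in Pard3HMKO, against 27.2 and 32.0 in Pard3WT (log2 fold change 1.85 ± 0.20, edgeR adjusted p = 1.88e-08). F11r had 222 and 233 CPM in Pard3HMKO, against 138 and 138 in Pard3WT (0.72 ± 0.16, edgeR adjusted p = 0.001). The scaffold gene Tjp1 had 77.7 and 39.0 CPM in Pard3HMKO, against 31.1 and 33.7 in Pard3WT (0.84 ± 0.23, edgeR adjusted p = 0.00767). Of all genes 16.7% were called. Tjp1 missed the threshold without Pard3HMKO replicate 1 or Pard3WT replicate 1 (0.26 to 0.79, adjusted p from 0.079 to 0.627) or in a fit of the compared libraries alone (0.83, adjusted p = 0.101). Cldn3 stood at 147 and 163 CPM in Pard3HMKO and 94.0 and 102 in Pard3WT. Between P14 and E19.5 the Pard3HMKO effect changed for Cldn1 (difference in log2 fold change 0.98 ± 0.24, edgeR adjusted p = 0.00478), Cldn2 (3.30 ± 0.85, edgeR adjusted p = 0.00737), Cldn3 (2.27 ± 0.69, edgeR adjusted p = 0.026) and Cdh1 (1.63 ± 0.28, edgeR adjusted p = 7.19e-05), beside 12.2% of all genes. For Cldn1 this change was not called without the marked cells (0.46, adjusted p = 0.875). For Cldn2 this change was not called without E19.5 Pard3WT replicate 2 (2.71, adjusted p = 0.0561) or without the marked cells (3.76, adjusted p = 0.191). For Cldn3 this change was not called without E19.5 Pard3HMKO replicates 1 or 2, E19.5 Pard3WT replicate 2, P14 Pard3HMKO replicates 1 or 2 or P14 Pard3WT replicates 1 or 2 (1.96 to 2.34, adjusted p from 0.0538 to 0.119) or without the marked cells (1.78, adjusted p = 0.792). Of the P14 Pard3HMKO cells 32 of 35 and 24 of 24 were marked, so P14 values without marked cells rest on few cells of replicate 1 in that group. Bile duct markers moved with genotype at P14: 3 of 8 tested rose, with sums of 79.6 to 133 CPM in Pard3HMKO and 22.4 to 25.1 in Pard3WT. Epcam had 4.05 and 10.4 CPM in Pard3HMKO, against 0.558 and 0.166 in Pard3WT, while the duct genes Krt7 and Cftr had no read in Pard3HMKO and Krt7, Krt19 and Anxa13 none in Pard3WT. Of the P14 Pard3WT cells 42 of 56 and 36 of 57 were marked. Marks of the myeloid list lay on 31 of 35 and 24 of 24 Pard3HMKO cells, against 8 of 56 and 11 of 57 in Pard3WT. Stellate cell marks lay on 15 and 6 Pard3HMKO cells, against 3 and 3 in Pard3WT, and erythroid marks on 17 and 14, against 40 and 34. The part of these markers and marked cells in the Cdh1, F11r and Tjp1 results was not tested.

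**Figure D2:**
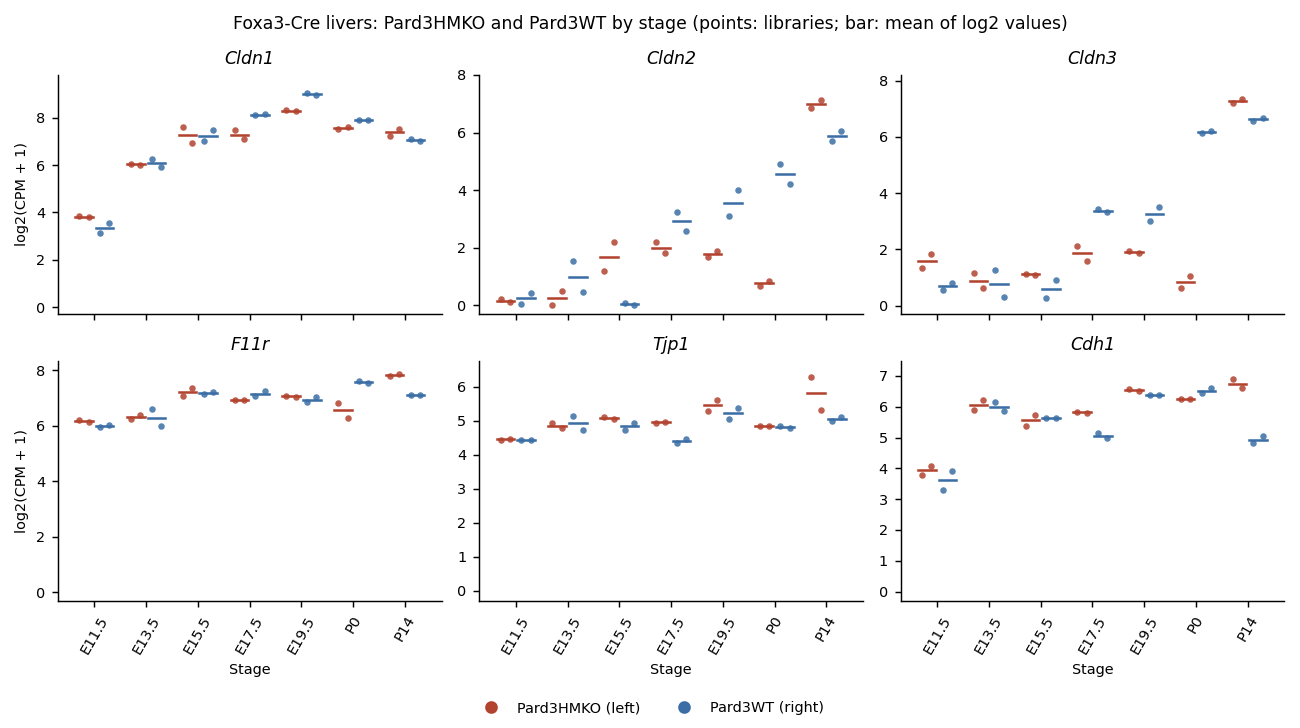
Level, as log2(CPM + 1), of Cldn1, Cldn2, Cldn3, F11r, Tjp1 and Cdh1 in each Foxa3-Cre library from E11.5 to P14, with Pard3HMKO left of Pard3WT at each stage and bars at the mean of the log2 values. Cldn1, Cldn2 and Cldn3 separate at E19.5, Cldn2 and Cldn3 most at P0, and Cdh1 at P14.

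The controls themselves changed around birth. In Pard3WT, Cldn3 had 70.2 and 72.6 CPM at P0, against 7.01 and 10.4 at E19.5 (log2 fold change 3.06 ± 0.51, edgeR adjusted p = 3.89e-05), while Cldn1 had 242 and 241 CPM at P0, against 530.0 and 497 at E19.5 (−1.07 ± 0.17, edgeR adjusted p = 1.75e-05). With F11r (0.66 ± 0.16, edgeR adjusted p = 0.00252) these were 3 of 9 members, beside 14.4% of all genes. The Cldn3 call ended without the marked cells (3.39, adjusted p = 0.195). Cldn1 no longer passed without the marked cells (−1.08, adjusted p = 0.115). For F11r the call was lost without E19.5 Pard3WT replicate 1 (0.57, adjusted p = 0.0745) or without the marked cells (0.75, adjusted p = 0.0594). At P14 Cdh1 was lower than at P0, with 27.2 and 32.0 CPM at P14, against 86.3 and 96.3 at P0 (−1.62 ± 0.20, edgeR adjusted p = 1.39e-07). Cldn1 (−0.86 ± 0.17), Cgn (−0.97 ± 0.26) and F11r (−0.46 ± 0.16) also fell and Ocln rose (0.91 ± 0.25), beside 19.4% of all genes. Cldn1 missed the threshold without the marked cells (−0.89, adjusted p = 0.183). The Cgn call ended without P0 Pard3WT replicate 1 or P14 Pard3WT replicate 1 (−0.76 to −0.73, adjusted p from 0.12 to 0.122). F11r no longer passed without any 1 of the 4 libraries (−0.49 to −0.43, adjusted p from 0.0962 to 0.16), with DESeq2 size factors (−0.42, adjusted p = 0.0584) or without the marked cells (−0.61, adjusted p = 0.121). For Ocln the call was lost without P0 Pard3WT replicate 2 or P14 Pard3WT replicate 2 (0.42 to 0.87, adjusted p from 0.0675 to 0.409), without the marked cells (0.96, adjusted p = 0.112) or in a fit of the compared libraries alone (0.93, adjusted p = 0.0507).

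In the E15.5 cultures of Pard3WT liver, Cldn1 and Cldn3 were lower with TPPB, and Cdh1 and F11r with PD and with U0126. With TPPB, Cldn1 had 0.812 and 1.44 CPM, against 35.7 and 57.3 in control cultures (log2 fold change −5.37 ± 0.44, edgeR adjusted p = 4.77e-08). Cldn3 had 1.5 and 2.01 CPM with TPPB, against 17.2 and 10.7 in control (−3.00 ± 0.73, edgeR adjusted p = 0.0117). Cdh1 had 29.9 and 31.6 CPM with TPPB, against 83.3 and 52.8 in control (−1.16 ± 0.35, edgeR adjusted p = 0.0481). These 3 of 9 members stood beside 6.79% of all genes. Cldn3 missed the threshold without Pard3WT control replicate 1 or Pard3WT TPPB replicates 1 or 2 (−3.23 to −2.62, adjusted p from 0.0867 to 0.144) or with every cell scaled to the same total (−2.24, adjusted p = 0.115). The Cdh1 call ended without Pard3WT control replicate 1 or Pard3WT TPPB replicates 1 or 2 (−1.20 to −0.79, adjusted p from 0.202 to 0.462), without the marked cells (−0.89, adjusted p = 0.252) or in a fit of the compared libraries alone (−1.17, adjusted p = 0.0508). All 10 hepatocyte markers fell with TPPB too, to sums of 5253 to 5296 CPM, against 33140 to 34380 in control. Bile duct marker sums were 89.99 to 133 CPM with TPPB and 38.5 to 53.7 in control (0 of 8 called), and stellate cell sums 139 to 239.6 with TPPB and 26.1 to 69.7 in control (0 of 10 called). The part of these lists was not tested. In YapWT cultures TPPB gave 2.98 and 4.98 CPM of Cldn1, against 59.5 and 48.0 in control (−3.78 ± 0.40, edgeR adjusted p = 9.5e-07), and 2.6 and 0.944 CPM of Cldn3, against 12.1 and 7.52 in control (−2.50 ± 0.72, edgeR adjusted p = 0.0268), beside 10.5% of all genes. Cldn3 no longer passed without YapWT control replicate 1 or YapWT TPPB replicate 2 (−2.09 to −1.95, adjusted p from 0.174 to 0.28) or in a fit of the compared libraries alone (−2.51, adjusted p = 0.097). All 10 hepatocyte markers fell there as well, and bile duct sums were 109.7 to 111 CPM with TPPB and 52.9 to 67.5 in control (1 of 8 rose). Stellate cell sums were 211 to 257 with TPPB and 32.9 to 61.6 in control (1 of 10 fell), and myeloid sums 50.8 to 55.3 with TPPB and 338 to 621 in control (1 of 13 rose and 5 fell), and the part of these lists was not tested.

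With PD the called members were Cdh1, F11r and Tjp1. In Pard3WT cultures Cdh1 had 15.4 and 15.1 CPM with PD, against 83.3 and 52.8 in control (log2 fold change −2.15 ± 0.36, edgeR adjusted p = 0.000244). F11r had 101 and 125.975 CPM with PD, against 210.3 and 229.5 in control (−0.94 ± 0.15, edgeR adjusted p = 0.000102), and Tjp1 had 40.1 and 44.9 CPM with PD, against 66.6 and 74.9 in control (−0.72 ± 0.19, edgeR adjusted p = 0.0128). Of all genes 14.8% were called. For Tjp1 the call was lost without Pard3WT control replicate 2 or Pard3WT PD replicate 1 (−0.64, adjusted p from 0.115 to 0.14) or without the marked cells (−0.51, adjusted p = 0.154). U0126 gave 11.6 and 12.4 CPM of Cdh1 (−2.49 ± 0.37, edgeR adjusted p = 5.86e-05) and 139 and 132 CPM of F11r (−0.69 ± 0.15, edgeR adjusted p = 0.00247), beside 13.1% of all genes. Cldn2 was not called with PD or with U0126 in Pard3WT, although its libraries did not overlap those of control. It had 62.1 and 77.2 CPM with PD and 121 and 61.6 with U0126, against 15.52 and 7.28 in control. In YapWT it was not called with PD either, at 24.4 and 36.9 CPM against 20.4 and 5.66 in control. PD and U0126 were each set against the same 2 control libraries. No comparison between the 2 compounds was made, since their doses are not labelled. In YapWT cultures with PD, F11r (−0.89 ± 0.15, edgeR adjusted p = 0.00015) and Cdh1 (−1.497 ± 0.35, edgeR adjusted p = 0.00481) fell and Cldn12 rose (0.81 ± 0.25, edgeR adjusted p = 0.0301), beside 17.53% of all genes. Cdh1 missed the threshold without YapWT PD replicate 2 (−1.13, adjusted p = 0.0964) or without the marked cells (−1.10, adjusted p = 0.096). The Cldn12 call ended without YapWT control replicate 2 or YapWT PD replicate 1 (0.40 to 0.56, adjusted p from 0.3 to 0.425), without the marked cells (0.45, adjusted p = 0.285), with every cell scaled to the same total (0.79, adjusted p = 0.0701) or in a fit of the compared libraries alone (0.83, adjusted p = 0.195). Markers of other cells were lower with PD. In Pard3WT bile duct sums were 15.0 to 17.7 CPM with PD and 38.5 to 53.7 in control (1 of 8 fell), and myeloid sums 7.57 to 9.96 with PD and 39.2 to 41.5 in control (2 of 13 fell). In YapWT bile duct sums were 10.2 to 12.1 with PD and 52.9 to 67.5 in control (2 of 8 fell), and myeloid sums 18.7 to 21.0 with PD and 338 to 621 in control (7 of 13 fell). U0126 gave 10.1 to 17.9 for bile duct (1 of 8 fell) and 8.11 to 12.6 for myeloid markers (3 of 13 fell) in Pard3WT, and the part of these lists was not tested.

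Cldn1 was higher where PD was added to TPPB. Pard3WT cultures with both compounds had 27.9 and 36.2 CPM of Cldn1, against 0.812 and 1.44 with TPPB alone (log2 fold change 4.84 ± 0.43, edgeR adjusted p = 1.92e-08). F11r had 133 and 128 CPM with both, against 240.4 and 246 with TPPB (−0.87 ± 0.15, edgeR adjusted p = 9.91e-05), and 26.1% of all genes were called. Against PD alone, adding TPPB gave no call in edgeR for any gene (0.0%), with 646 genes at an unadjusted p under 0.05 and 13 called by DESeq2. Cldn1 had 27.9 and 36.2 CPM with both and 44.5 and 35.4 with PD, a log2 difference of −0.32 ± 0.35. Hepatocyte marker sums were 24460 to 28670 CPM with both compounds and 5253 to 5296 with TPPB. Bile duct sums were 17.49 to 19.6 with both and 89.99 to 133 with TPPB, and stellate cell sums 15.3 to 33.1 with both and 139 to 239.6 with TPPB, and the part of these lists was not tested.

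Cldn1 was lower in control cultures of the Pard3 and Yap knockouts than in their wild types, and in both knockouts it was higher with PD. In control cultures Cldn1 had 3.69 and 6.05 CPM in Pard3HMKO, against 35.7 and 57.3 in Pard3WT (log2 fold change −3.26 ± 0.38, edgeR adjusted p = 2.37e-05), and Cldn3 had 3.48 and 1.48 CPM in Pard3HMKO, against 17.2 and 10.7 in Pard3WT (−2.49 ± 0.71, edgeR adjusted p = 0.0451). These were 2 of 9 members, beside 4.92% of all genes. Cldn3 no longer passed without any 1 of the 4 libraries (−3.24 to −1.997, adjusted p from 0.0702 to 0.438), without the marked cells (−2.43, adjusted p = 0.104), with every cell scaled to the same total (−2.25, adjusted p = 0.158) or in a fit of the compared libraries alone (−2.53, adjusted p = 0.0785). In YapHMKO control cultures Cldn1 had 1.17 and 1.85 CPM, against 59.5 and 48.0 in YapWT (−5.14 ± 0.43, edgeR adjusted p = 9.95e-08), the only member called there, beside 9.18% of all genes. All 10 hepatocyte markers fell in both, with sums of 9850 to 10700 CPM in Pard3HMKO against 33140 to 34380 in Pard3WT and 10980 to 14610 in YapHMKO against 35540 to 65110 in YapWT, and their part was not tested.

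With PD, Pard3HMKO cultures had 27.3 and 38.7 CPM of Cldn1, against 3.69 and 6.05 in Pard3HMKO control (log2 fold change 2.80 ± 0.38, edgeR adjusted p = 1.59e-05), the 1 member called beside 14.54% of all genes. U0126 gave 43.4 and 33.3 CPM of Cldn1 (2.98 ± 0.38, edgeR adjusted p = 5.4e-06) and lowered F11r (−0.62 ± 0.15, edgeR adjusted p = 0.0041), beside 17.8% of all genes. YapHMKO cultures with PD had 26.6 and 37.1 CPM of Cldn1, against 1.17 and 1.85 in YapHMKO control (4.39 ± 0.42, edgeR adjusted p = 9.19e-08). Cldn2 (4.85 ± 1.23, edgeR adjusted p = 0.0117) and Cgn (0.72 ± 0.23, edgeR adjusted p = 0.0288) also rose there and F11r fell (−1.02 ± 0.15, edgeR adjusted p = 2.19e-05), beside 20.0% of all genes. For Cldn2 the call was lost without YapHMKO control replicate 1 (3.87, adjusted p = 0.0784) or in a fit of the compared libraries alone (4.91, adjusted p = 0.0668). Cgn missed the threshold without YapHMKO control replicates 1 or 2 or YapHMKO PD replicate 2 (0.43 to 0.76, adjusted p from 0.11 to 0.359), with every cell scaled to the same total (0.67, adjusted p = 0.0834) or in a fit of the compared libraries alone (0.78, adjusted p = 0.114). Hepatocyte markers rose in these cultures as well: 7 of 10 in Pard3HMKO with PD, 8 with U0126 and 8 in YapHMKO with PD.

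The response to PD differed between genotypes for Cldn1 and Cdh1. The difference in log2 fold change between Pard3HMKO and Pard3WT was 3.00 ± 0.51 for Cldn1 (edgeR adjusted p = 0.00491) and 2.66 ± 0.50 for Cdh1 (edgeR adjusted p = 0.0106), beside 0.808% of all genes. For U0126 it was 3.09 ± 0.51 for Cldn1 (edgeR adjusted p = 0.00195) and 2.40 ± 0.50 for Cdh1 (edgeR adjusted p = 0.0122), beside 1.62% of all genes. Between YapHMKO and YapWT the PD response differed for Cldn1 alone among members (4.66 ± 0.54, edgeR adjusted p = 3.72e-05), beside 3.73%. For Cldn1 the PD difference in the Pard3 line was not called without Pard3WT PD replicate 2 (2.85, adjusted p = 0.0535). For Cdh1 the PD difference in the Pard3 line was not called without Pard3WT control replicate 1, Pard3WT PD replicates 1 or 2 or Pard3HMKO control replicate 2 (2.30 to 2.67, adjusted p from 0.0653 to 0.075). For Cdh1 the U0126 difference was not called without Pard3WT control replicate 1, Pard3WT U0126 replicates 1 or 2, Pard3HMKO control replicate 2 or Pard3HMKO U0126 replicate 1 (1.78 to 2.46, adjusted p from 0.068 to 0.112) or without the marked cells (1.99, adjusted p = 0.113). Under PD, Cldn1 had 27.3 and 38.7 CPM in Pard3HMKO and 44.5 and 35.4 in Pard3WT and was not called. Cdh1 (1.52 ± 0.36, edgeR adjusted p = 0.0407) and F11r (0.66 ± 0.15, edgeR adjusted p = 0.0333) were higher in Pard3HMKO under PD, beside 1.01% of all genes. The Cdh1 call ended without any 1 of the 4 libraries (1.303 to 1.72, adjusted p from 0.106 to 0.303). F11r no longer passed without any 1 of the 4 libraries (0.50 to 0.83, adjusted p from 0.0539 to 0.408), with every cell scaled to the same total (0.67, adjusted p = 0.0755) or in a fit of the compared libraries alone (0.66, adjusted p = 0.104). No member was called between Pard3HMKO and Pard3WT under U0126 (0.203% of all genes) or between YapHMKO and YapWT under PD (1.65%).

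**Figure D3:**
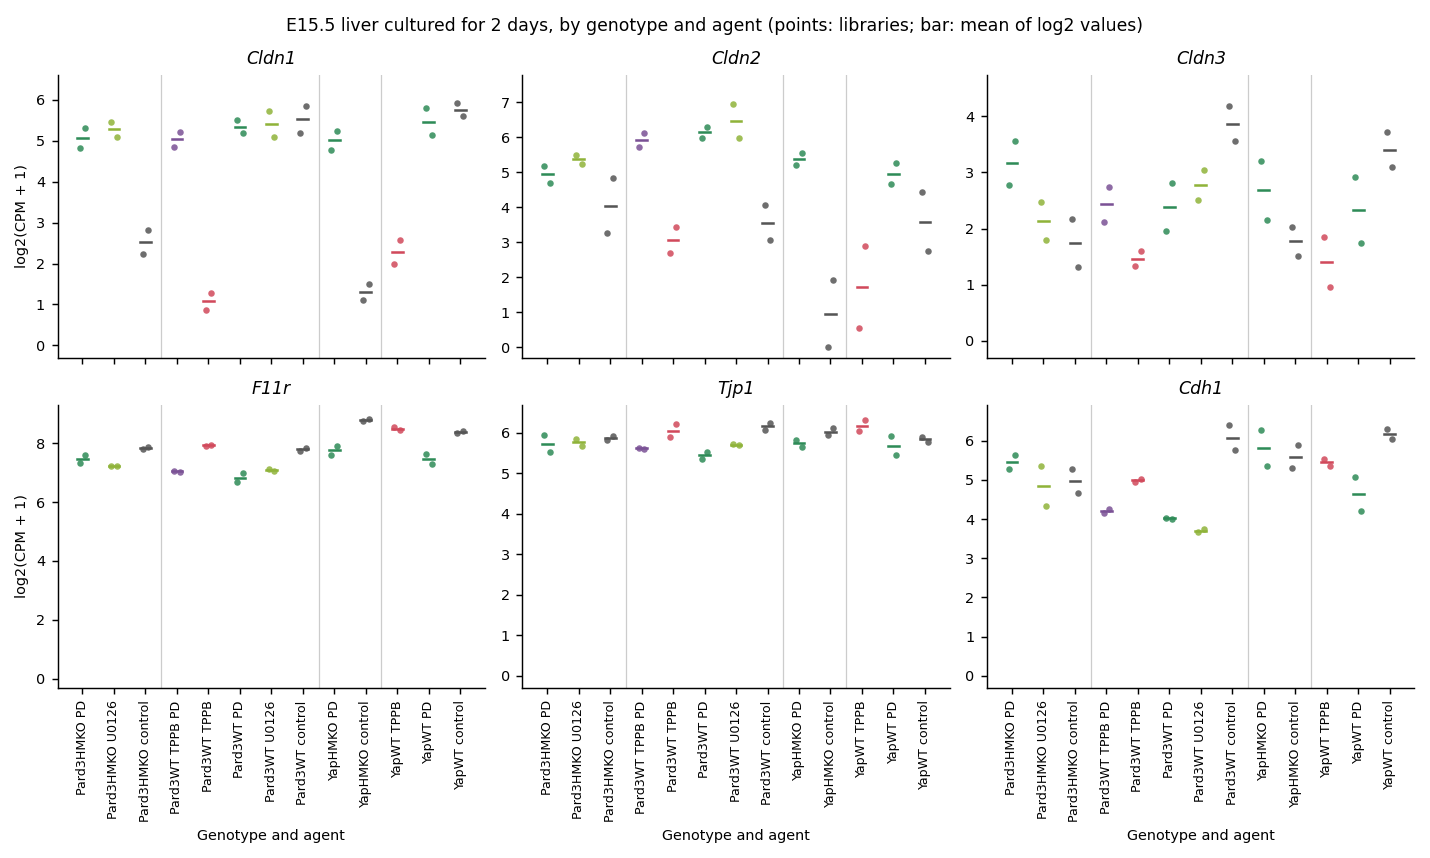
Level, as log2(CPM + 1), of 6 members in each library of the cultured E15.5 livers, by genotype and compound, with bars at the mean of the log2 values. Cldn1 is lowest with TPPB and in both untreated knockouts, at 1.17 and 1.85 CPM in YapHMKO control, and higher in both knockouts with PD.

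Most of the family differed between culture and liver. In Pard3WT control cultures against E15.5 liver 8 of 9 members were called, beside 23.1% of all genes. Cldn1 had 35.7 and 57.3 CPM in culture, against 127 and 178 in vivo (log2 fold change −1.71 ± 0.27, edgeR adjusted p = 5.21e-07), and Ocln had 15.46 and 19.3 CPM in culture, against 72.5 and 51.7 in vivo (−1.84 ± 0.38, edgeR adjusted p = 9.64e-05). Cgn was lower (−1.29 ± 0.25), and Cldn3 (4.79 ± 0.77), Tjp1 (1.35 ± 0.25), Cldn12 (1.07 ± 0.25) and F11r (0.60 ± 0.17) were higher. Cldn2 rose on 389 reads against 2, a depth-scaled ratio of 294 with a 95% counting interval of 80.9 to 2440.0. For Cldn12 the call was lost without E15.5 Pard3WT replicate 2 (0.77, adjusted p = 0.0832). F11r missed the threshold without E15.5 Pard3WT replicate 1 or E15.5 culture Pard3WT control replicates 1 or 2 (0.42 to 0.56, adjusted p from 0.0589 to 0.195) or without the marked cells (0.39, adjusted p = 0.215). Markers differed as well. Hepatocyte sums were 33140 to 34380 CPM in culture and 166800 to 191400 at E15.5 (9 of 10 fell), bile duct sums 38.5 to 53.7 in culture and 13.2 to 19.9 at E15.5 (1 of 8 rose), and myeloid sums 39.2 to 41.5 in culture and 2.86 to 3.21 at E15.5 (8 of 16 rose). Against E17.5, with hepatocyte sums of 531100 to 566300 in liver, all 10 hepatocyte markers fell, and the part of these lists was not tested. Against E17.5 liver 7 members passed, beside 30.8%: Cldn1 (−2.58 ± 0.28), Ocln (−1.74 ± 0.38) and Cgn (−1.32 ± 0.25) lower, and Tjp1 (1.82 ± 0.25), Cldn12 (1.28 ± 0.25), F11r (0.63 ± 0.17) and Cdh1 (1.07 ± 0.29) higher. The F11r call ended without E17.5 Pard3WT replicate 1 or E15.5 culture Pard3WT control replicate 2 (0.50 to 0.54, adjusted p from 0.0603 to 0.0747). Cdh1 no longer passed without E15.5 culture Pard3WT control replicate 1 (0.65, adjusted p = 0.194) or without the marked cells (0.76, adjusted p = 0.242).

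YapWT control cultures gave 6 members against E15.5 liver, beside 24.4% of all genes. Cldn1 (−1.90 ± 0.27), Ocln (−1.57 ± 0.38) and Cgn (−1.09 ± 0.25) fell, and Cldn3 (4.28 ± 0.71), Tjp1 (0.84 ± 0.25) and F11r (0.71 ± 0.17) rose. For Ocln the call was lost without the marked cells (−0.93, adjusted p = 0.182). Tjp1 missed the threshold without E15.5 YapWT replicate 1 or E15.5 culture YapWT control replicate 1 (0.68 to 0.79, adjusted p from 0.0771 to 0.103), without the filter on low counts (0.80, adjusted p = 0.0509), without the marked cells (0.65, adjusted p = 0.16) or with every cell scaled to the same total (0.79, adjusted p = 0.058). Against E17.5 liver Ocln (−2.43 ± 0.39), Cldn1 (−2.22 ± 0.28) and Cgn (−1.36 ± 0.25) fell and F11r (1.26 ± 0.17) and Tjp1 (1.19 ± 0.25) rose, beside 31.9% of all genes. Hepatocyte sums were 35540 to 65110 CPM in YapWT culture, 141700 to 151200 at E15.5 and 558300 to 573800 at E17.5, and myeloid sums 338 to 621 in culture, 24.4 to 26.7 at E15.5 and 299 to 302 at E17.5. Both culture comparisons of a line share their culture libraries, and culture and handling cannot be told apart in them. Between the adult Pard3WT liver at PHx d0 and P14 Pard3WT, which differ in alleles as well as age, Ocln (−1.82 ± 0.38, edgeR adjusted p = 0.000197), Cldn1 (−1.78 ± 0.27, edgeR adjusted p = 4.77e-07), Cgn (−1.29 ± 0.25, edgeR adjusted p = 7.53e-05) and Tjp1 (−1.06 ± 0.25, edgeR adjusted p = 0.00121) were lower, beside 13.3% of all genes. The Tjp1 call ended with every cell scaled to the same total (−0.85, adjusted p = 0.0638). Cgn no longer passed without the marked cells (−0.64, adjusted p = 0.377).

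In adult Pard3WT livers Cgn, F11r, Cdh1 and Cldn2 were higher at PHx d2 than at d0. In Pard3WT, Cgn had 45.0 and 52.0 CPM at d2, against 10.4 and 17.46 at d0 (log2 fold change 1.85 ± 0.28, edgeR adjusted p = 6.46e-05). F11r had 288 and 382 CPM at d2, against 136 and 136 at d0 (1.35 ± 0.24, edgeR adjusted p = 0.000378), and Cdh1 had 53.3 and 52.0 CPM at d2, against 26.0 and 19.8 at d0 (1.25 ± 0.36, edgeR adjusted p = 0.0209). Cldn2 also rose (0.88 ± 0.23, edgeR adjusted p = 0.0105), beside 15.7% of all genes. For Cdh1 the call was lost without Pard3WT PHx d0 replicates 1 or 2 or Pard3WT PHx d2 replicate 1 (1.08 to 1.48, adjusted p from 0.0518 to 0.178). Cldn2 missed the threshold without Pard3WT PHx d0 replicate 1 or Pard3WT PHx d2 replicate 1 (0.74 to 0.81, adjusted p from 0.0954 to 0.108), without the marked cells (−0.21, adjusted p = 0.925) or with every cell scaled to the same total (0.77, adjusted p = 0.0714). Replicate 1 of Pard3WT d2 held 7 cells. In Pard3WT bile duct marker sums were 769.7 to 3135 CPM at d2 and 112 to 341 at d0 (1 of 7 rose), and myeloid sums 99.0 to 192 at d2 and 71.0 to 72.5 at d0 (1 of 16 rose), and the part of these lists was not tested. By d7 Cgn (−1.80 ± 0.23, edgeR adjusted p = 5.46e-06), Cdh1 (−1.66 ± 0.30, edgeR adjusted p = 0.000332) and F11r (−1.02 ± 0.20, edgeR adjusted p = 0.000644) were lower than at d2. Cldn2 (−0.84 ± 0.19) and Cldn3 (−0.78 ± 0.22) also fell and Cldn12 rose (0.76 ± 0.21), so that 6 of 9 members were called, beside 21.5% of all genes. The Cldn2 call ended without Pard3WT PHx d2 replicate 1 (−0.70, adjusted p = 0.06) or without the marked cells (0.34, adjusted p = 0.85). Cldn3 no longer passed without Pard3WT PHx d2 replicate 1 (−0.68, adjusted p = 0.138) or without the marked cells (−0.56, adjusted p = 0.0977). For Cldn12 the call was lost without Pard3WT PHx d2 replicate 1 (0.39, adjusted p = 0.286), without the marked cells (0.99, adjusted p = 0.079) or in a fit of the compared libraries alone (0.74, adjusted p = 0.0513). Between d7 and d0 edgeR called no gene in Pard3WT (0.0%), with 633 at an unadjusted p under 0.05 and 24 called by DESeq2.

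In Pard3HMKO livers the members called at d2 were Cldn2, Cldn1 and F11r. Cldn2 had 226 and 237 CPM at d2, against 93.4 and 92.5 at d0 (log2 fold change 1.36 ± 0.23, edgeR adjusted p = 0.000197), and Cldn1 had 24.5 and 22.4 CPM at d2, against 40.1 and 56.9 at d0 (−1.002 ± 0.30, edgeR adjusted p = 0.02). F11r rose (0.97 ± 0.24, edgeR adjusted p = 0.00571), and 18.8% of all genes were called. Cldn2 missed the threshold without the marked cells (1.25, adjusted p = 0.445). The Cldn1 call ended without Pard3HMKO PHx d0 replicate 2 or Pard3HMKO PHx d2 replicates 1 or 2 (−1.04 to −0.74, adjusted p from 0.099 to 0.225) or without the marked cells (−0.66, adjusted p = 0.301). F11r no longer passed without Pard3HMKO PHx d0 replicate 1 (0.93, adjusted p = 0.0595). In Pard3HMKO bile duct marker sums were 192 to 342 CPM at d2 and 41.8 to 212 at d0. At d7 against d2 Cldn1 (1.55 ± 0.26, edgeR adjusted p = 0.000166), Cdh1 (1.25 ± 0.31, edgeR adjusted p = 0.00632), Ocln (1.57 ± 0.48) and Tjp1 (0.98 ± 0.29) rose and Cldn2 fell (−1.36 ± 0.17, edgeR adjusted p = 6.04e-06), beside 20.3% of all genes. For Cdh1 the call was lost without Pard3HMKO PHx d2 replicate 2 (0.87, adjusted p = 0.208) or without the marked cells (1.505, adjusted p = 0.155). Ocln missed the threshold without Pard3HMKO PHx d2 replicate 1 (1.003, adjusted p = 0.359), without the marked cells (1.18, adjusted p = 0.194) or with every cell scaled to the same total (1.42, adjusted p = 0.0583). The Tjp1 call ended without Pard3HMKO PHx d2 replicates 1 or 2 (0.81 to 1.04, adjusted p from 0.121 to 0.239), without the marked cells (0.78, adjusted p = 0.162), with every cell scaled to the same total (0.94, adjusted p = 0.0969) or in a fit of the compared libraries alone (0.95, adjusted p = 0.0722). Cldn2 no longer passed without the marked cells (−1.72, adjusted p = 0.181). Against d0, d7 differed for Cdh1 (1.12 ± 0.31, edgeR adjusted p = 0.0482), beside 3.72% of all genes. For Cdh1 the call was lost without Pard3HMKO PHx d0 replicates 1 or 2 or Pard3HMKO PHx d7 replicates 2, 4, 5 or 6 (0.84 to 1.36, adjusted p from 0.056 to 0.632), without the marked cells (1.73, adjusted p = 0.193) or with every cell scaled to the same total (0.95, adjusted p = 0.126).

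Set side by side, the genotypes gave opposite orders for Cdh1 at d2 and d7. At d0 edgeR called no gene between Pard3HMKO and Pard3WT (0.0%), with 995 at an unadjusted p under 0.05 and 178 called by DESeq2. At d2 Cdh1 had 21.8 and 12.9 CPM in Pard3HMKO, against 53.3 and 52.0 in Pard3WT (log2 fold change −1.64 ± 0.37, edgeR adjusted p = 0.0122). Cldn1 had 24.5 and 22.4 CPM in Pard3HMKO at d2, against 38.4 and 67.5 in Pard3WT (−1.21 ± 0.30, edgeR adjusted p = 0.0255), and these 2 members stood beside 3.18% of all genes. Cdh1 missed the threshold without Pard3WT PHx d2 replicate 1 or Pard3HMKO PHx d2 replicate 2 (−1.54 to −1.29, adjusted p from 0.078 to 0.258), without the marked cells (−2.51, adjusted p = 0.0987) or in a fit of the compared libraries alone (−1.70, adjusted p = 0.0637). The Cldn1 call ended without Pard3WT PHx d2 replicate 2 or Pard3HMKO PHx d2 replicates 1 or 2 (−1.24 to −0.83, adjusted p from 0.168 to 0.27), without the marked cells (−0.94, adjusted p = 0.295) or in a fit of the compared libraries alone (−1.26, adjusted p = 0.11). At d2 bile duct marker sums were 192 to 342 CPM in Pard3HMKO and 769.7 to 3135 in Pard3WT, with 0 of 7 called, and their part was not tested. Cdh1 and Cldn2 also differed between pericentral and periportal cells within adult libraries, as given below. The mix of such cells in each library, and its part in the adult Cdh1 and Cldn2 results, was not tested. At d7 Cdh1 had a lowest of 31.9, a median of 39.1 and a highest of 48.0 CPM over the 6 Pard3HMKO libraries, against 25.4, 10.3, 18.6 and 13.1 in Pard3WT (1.26 ± 0.24, edgeR adjusted p = 0.00292). Cldn1 (0.68 ± 0.19, edgeR adjusted p = 0.042) and Cgn (0.63 ± 0.18, edgeR adjusted p = 0.0439) were also called at d7, the genotypes overlapping for Cgn, beside 5.51% of all genes. Cdh1 no longer passed without the marked cells (1.66, adjusted p = 0.104). For Cldn1 the call was lost without Pard3WT PHx d7 replicates 1, 2, 3 or 4 or Pard3HMKO PHx d7 replicates 2, 3 or 4 (0.54 to 0.75, adjusted p from 0.0503 to 0.138), without the marked cells (0.50, adjusted p = 0.426) or in a fit of the compared libraries alone (0.71, adjusted p = 0.0557). Cgn missed the threshold without Pard3WT PHx d7 replicates 1, 2, 3 or 4 or Pard3HMKO PHx d7 replicates 1, 2, 3 or 6 (0.57 to 0.69, adjusted p from 0.0624 to 0.139), without the filter on low counts (0.61, adjusted p = 0.172), without the marked cells (0.50, adjusted p = 0.488) or with every cell scaled to the same total (0.47, adjusted p = 0.218). All cells of Pard3HMKO d7 replicates 3 and 4 were marked and drop out without marked cells.

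The change between d7 and d2 differed between Pard3HMKO and Pard3WT for Cdh1 (difference in log2 fold change 2.90 ± 0.44, edgeR adjusted p = 0.000291), Cldn1 (1.89 ± 0.36, edgeR adjusted p = 0.00239) and Cgn (1.63 ± 0.33, edgeR adjusted p = 0.00424), beside 4.7% of all genes. For Cldn1 this difference was not called without the marked cells (1.44, adjusted p = 0.115). For Cgn this difference was not called without Pard3HMKO PHx d2 replicate 1 (1.47, adjusted p = 0.0698) or without the marked cells (1.78, adjusted p = 0.0605). For the change between d2 and d0 no member's difference was called, beside 2.36%. At d7, 8 of 16 myeloid markers rose, with sums of 52.2 to 171 CPM in Pard3HMKO and 35.9 to 47.1 in Pard3WT. Of 12 stellate cell markers 5 rose (49.5 to 369 CPM in Pard3HMKO, 7.01 to 37.9 in Pard3WT). Bile duct markers summed to 30.3 to 669.9 CPM in Pard3HMKO and 35.1 to 105 in Pard3WT, and 0 of 7 tested were called. The part of these cells in the d7 results was not tested.

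**Figure D4:**
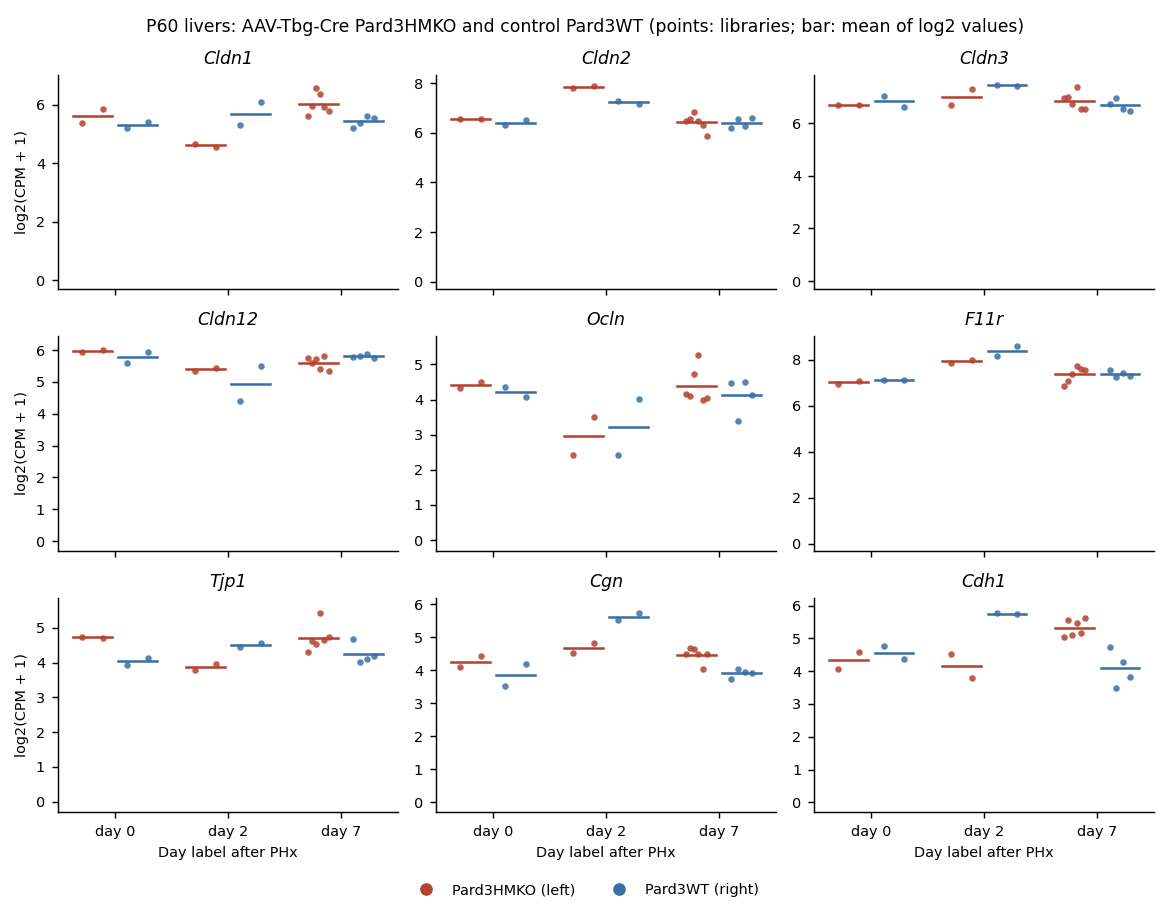
Level, as log2(CPM + 1), of the 9 members in each adult library at d0, d2 and d7 of PHx, with Pard3HMKO left of Pard3WT on each day and bars at the mean of the log2 values. At d2 the Pard3HMKO libraries lie below Pard3WT for Cdh1, and at d7 above.

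Within each adult library, cells were ordered by a score from 12 pericentral and 12 periportal genes, none of them a member. Over 769 cells of 18 libraries Cldn2 followed the pericentral end, with Spearman's rho of 0.461 to 0.835 and a median of 0.777, above 0 in 18 of 18 libraries. Its median level was 115 CPM in the most pericentral cells of a library and 7.47 CPM in the most periportal ones, the cells having been split into equal groups by score. Cdh1 followed the periportal end, with rho of −0.895 to −0.505 and a median of −0.76, below 0 in 18 of 18, at 0.288 CPM in the most pericentral and 40.7 CPM in the most periportal cells. F11r leaned the same way as Cdh1 in 16 of 18 libraries (median rho −0.459), at 75.9 CPM pericentrally and 153 CPM periportally. Cldn3 showed little order, with a median rho of 0.131 and levels of 79.3 and 80.4 CPM. Cells of 1 library share their source, so these values are descriptions. The score was set within each library, so it does not compare the zonal mix between libraries. The part of that mix in the adult differences of Cdh1, Cldn2 and F11r by genotype or day was not tested.

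The partner genes of the junction were read from lists of 34 tight junction, 14 adherens junction and 9 desmosome or gap junction genes. At E17.5, 5 of 29 tested tight junction partners rose and 2 fell in Pard3HMKO, 2 of 9 adherens junction partners rose, and 1 of 9 desmosome or gap junction genes rose and 2 fell, beside 14.9% of all genes. Ctnnb1, beta-catenin, which binds E-cadherin, averaged 204 ± 17.8 CPM in Pard3HMKO and 66.3 ± 2.44 CPM in Pard3WT (SD, n = 2 each, log2 fold change 1.62 ± 0.12, edgeR adjusted p = 1.2e-11). Gjb1, the main hepatocyte connexin, averaged 365 ± 78.9 CPM in Pard3HMKO and 755 ± 102 CPM in Pard3WT (−1.05 ± 0.13, edgeR adjusted p = 2.81e-07), and Ybx3, a Y-box factor that binds ZO-1, rose by 1.94 ± 0.23. The Ctnnb1 rise was 0.55 ± 0.12 with Alfp-Cre at E17.5, and with Foxa3-Cre 0.43 ± 0.12 at E19.5 and 1.20 ± 0.12 at P0. Its effect was called as different between Alfp-Cre and Foxa3-Cre (−1.07 ± 0.16, edgeR adjusted p = 0.000105), beside 2.91% of all genes. Between E19.5 and E17.5 it also differed (−1.19 ± 0.16, edgeR adjusted p = 1.29e-05), beside 3.61%. Ybx3 differed likewise (−1.64 ± 0.32 and −1.79 ± 0.32). At P0, 5 of 29 rose and 4 fell, beside 21.8% of all genes, and the connexin genes Gjb1 (−1.44 ± 0.13) and Gjb2 (−2.11 ± 0.21) fell in Pard3HMKO beside Cldn2 and Cldn3. At P14, 5 of 29 tight junction partners rose and 1 fell, a share near the 16.7% of all genes called, and 4 of 9 desmosome or gap junction genes rose and 1 fell. Cxadr, a junctional adhesion molecule known as the coxsackievirus and adenovirus receptor, averaged 222 ± 10.1 CPM in Pard3HMKO and 57.0 ± 4.67 CPM in Pard3WT (1.95 ± 0.14, edgeR adjusted p = 6.58e-13), and Cldn7 averaged 2.77 ± 0.825 CPM in Pard3HMKO, without a read in either Pard3WT library.

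In Pard3WT cultures with TPPB, Gjb1 averaged 26.9 ± 11.1 CPM with TPPB and 232 ± 3.65 CPM in control (log2 fold change −3.13 ± 0.26, edgeR adjusted p = 7.02e-08). Gjb2 fell with it (−2.67 ± 0.36) and the angiomotin relative Amotl2 rose (1.82 ± 0.40). With PD, Tjp3, a ZO-family scaffold, averaged 29.7 ± 9.03 CPM with PD and 1.91 ± 1.4 CPM in control (3.93 ± 0.63, edgeR adjusted p = 0.000129) while its relative Tjp1 fell. Of the tight junction partners 1 of 28 rose and 1 fell in each of these 2 comparisons, near the 6.79% of all genes called with TPPB and below the 14.8% with PD. When PD was added to TPPB, 7 of 9 desmosome and gap junction genes rose, beside 26.1% of all genes, Gjb1 by 4.07 ± 0.27. In adult Pard3WT at d2 against d0, 3 of 24 tight junction partners rose and 1 fell, near the 15.7% of all genes, Cxadr by 1.81 ± 0.22 and the claudin gene Cldn14 by 2.71 ± 0.36 upward, and in Pard3HMKO Cldn14 rose by 2.92 ± 0.35 and the desmosomal cadherin gene Dsg2 fell (−1.88 ± 0.21). With embryonic age in B6C3F1 liver, 7 of 24 tight junction partners rose and 3 fell, beside 35.5% of all genes, and Gjb1 (0.42 ± 0.03 per day) and Gjb2 (0.67 ± 0.06) rose.

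**Figure D5:**
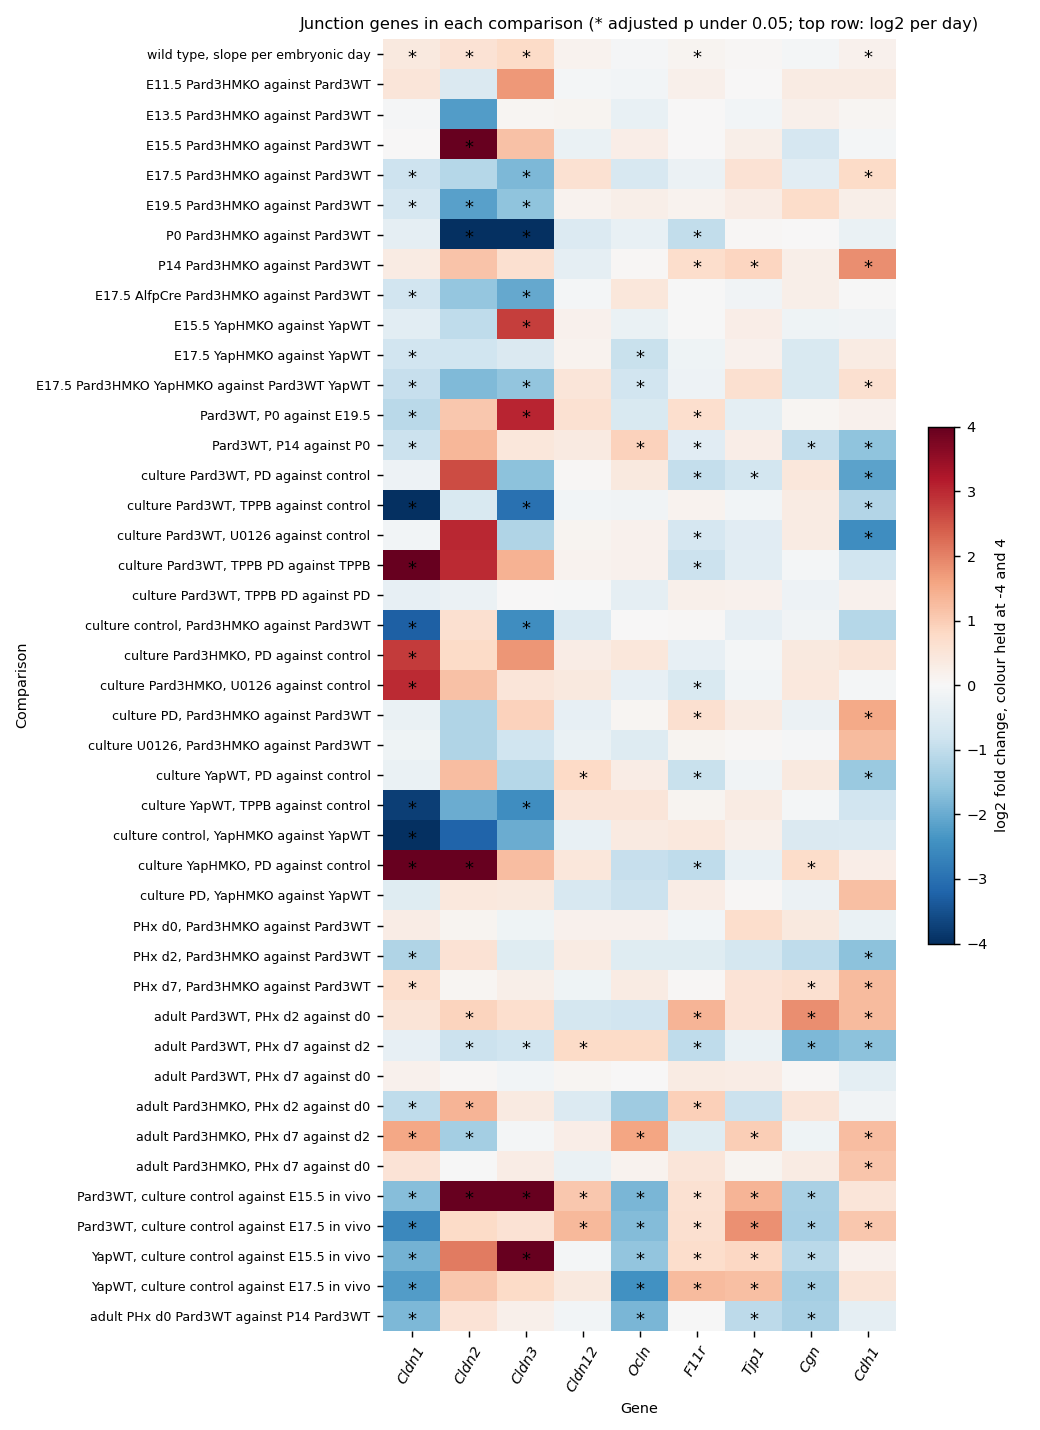
Heat map of the log2 fold changes of the 9 members (columns) in the comparisons (top row: log2 per day), with stars on those that passed the adjusted p threshold and colours held at −4 and 4. Cldn1 and Cldn3 are lower in Pard3HMKO at E17.5 and E19.5 and with TPPB. Cldn1 is higher when PD is added to TPPB in Pard3WT and with PD in both knockouts, and is not called with PD alone in Pard3WT or YapWT.

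Over the means of the 49 groups, Cldn2 and Cldn3 had the closest pattern within the family (Pearson r of log2 CPM 0.83), followed by Cldn2 and Cldn12 (0.73), Cldn3 and Cldn12 (0.69) and Cldn1 and Ocln (0.65), while Cldn3 and Cgn ran opposite (−0.71). Among all genes the closest to Cldn1 were Ccl9 (0.946), BC021614 and Cyp2c68, and the closest to Cldn2 were Tat (0.914), Sqrdl and Tmem106b. Lrg1 (0.912), Il13ra1 and Fam25c were closest to Cldn3, and Slc25a16 (0.841), Ppm1a and BC005537 to Cldn12. F11r was closest to Cxcl1 (0.843), Bnip2 and Gm26809, Tjp1 to Chka (0.838), Csf1 and Net1, Cgn to Phlda2 (0.907), Mfge8 and Sgce, and Cdh1 to Nid1 (0.774), Slc39a4 and Pld1. These groups share libraries' stage and depth, so the coefficients are descriptions.

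Open chromatin was read from the authors' peak lists of 22 ATAC-seq libraries (mm10), 3 for each E17.5 genotype and 2 for each culture. Merging peaks gave 77 regions within 10 kb of a member's gene span, 62 of them inside it, and 9 were present in all 22 libraries. Peaks overlapped the promoter windows of Cldn3, Cldn12, Ocln, F11r, Tjp1 and Cgn in every library, that of Cldn1 in 20, and that of Cldn2 in 0. A region was counted as gained or lost where every library of one group and none of the other had a peak. Near members 5 of 56 regions were gained or lost in E17.5 Pard3HMKO (all regions, 8.33%) and 4 of 57 in the libraries labelled YapHMKO (7.2%). In culture there were 3 of 43 with PD (22.8%), 12 of 53 with TPPB (17.0%), 10 of 53 in Pard3HMKO control (14.0%) and 11 of 51 in Pard3HMKO with PD against its control (15.4%). The groups' peak lists carry no test, and the culture libraries differed in their number of peaks. Pard3WT controls held 35879 and 45898 peaks, against 24270 and 27525 with PD and 26543 and 34216 with TPPB. Pard3HMKO cultures held 26293 and 35301 in control and 24330 and 31877 with PD. The part of these numbers in the gained and lost regions was not tested.

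A region upstream of Cldn3 (chr5:134980909-134981569, centred at −4975 from the start site) had a peak in 0 of 3 E17.5 Pard3HMKO libraries, against 3 of 3 Pard3WT, and in 0 of 3 labelled YapHMKO, against 3 of 3 YapWT. In culture it had a peak in 0 of 2 TPPB libraries, against 2 of 2 controls, in 0 of 2 Pard3HMKO controls, and in 2 of 2 Pard3HMKO libraries with PD. A region inside Cldn1 (chr16:26357935-26358448, 13648 bases after the start site) followed the same order in culture, with 0 of 2 under TPPB and 0 of 2 in Pard3HMKO control, against 2 of 2 in Pard3WT control, and 2 of 2 in Pard3HMKO with PD. At E17.5 that region had a peak in 1 of 3 Pard3HMKO libraries, against 3 of 3 Pard3WT. Near Cldn2 a region centred at −2665 from the start site (chrX:139797836-139798450) had a peak in 3 of 3 Pard3HMKO and 3 of 3 libraries labelled YapHMKO at E17.5 and in no other library. A region inside Ocln (chr13:100543009-100543689) had a peak in 0 of 3 Pard3HMKO, against 3 of 3 Pard3WT, and in 0 of 3 labelled YapHMKO, against 3 of 3 YapWT. Inside Tjp1 (chr7:65379260-65379706) a peak was present in 3 of 3 Pard3HMKO, against 0 of 3 Pard3WT, and with TPPB and in Pard3HMKO control cultures, 2 of 2 each, against 0 of 2 in Pard3WT control. The RNA of Cldn1 and Cldn3 was called lower in E17.5 Pard3HMKO, in cultures with TPPB and in Pard3HMKO control cultures, and that of Cldn2 was not called at E17.5. Cldn3 RNA was not called in the E17.5 libraries labelled YapHMKO, at 4.88 and 2.90 CPM against 3.76 and 7.88 in YapWT. In Pard3HMKO cultures with PD, Cldn1 RNA was called higher and Cldn3 RNA was not called. Ocln RNA was called lower in the libraries labelled YapHMKO and not in E17.5 Pard3HMKO. Tjp1 RNA was not called in E17.5 Pard3HMKO, with TPPB or in Pard3HMKO control cultures.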

How the data were processed

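RNA came as a deposited table of whole read counts per gene and cell. Per the submitters' processing notes, reads were checked with FastQC 0.11.9, trimmed with Trimmomatic 0.39 and aligned to GRCm38/mm10 with HISAT2 2.1.0. How reads were counted, and on which annotation, is not given in the sources used here. A second deposited table, of values scaled per length and depth, served only to derive relative transcript lengths. Counts were summed per library (4506130 to 86188713 reads, median 622917 per cell). The 92 spike-in entries were left out. Levels are depth-scaled counts (CPM) with TMM factors over all RNA libraries. Comparisons used edgeR 4.0.16 quasi-likelihood tests (R 4.3.3, limma 3.58.1, TMM, filterByExpr, robust), in 5 fits of 18 or more libraries and 15391 to 20630 genes. A gene was called at a Benjamini-Hochberg adjusted p under 0.05 over all genes of a comparison, and SE is the log2 fold change over the root of F. DESeq2 1.42.0 was an alternative.

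The tests were run on simulated data with known changes, drawn with less spread between libraries than the common estimate of each fit. That run checks the code and does not show how reliable calls between groups of 2 libraries are. ATAC peaks (MACS 1.4.2, HOMER, Bowtie2 2.2.5 and Trimmomatic 0.38 on mm10, per the submitters' processing notes) carry a deposited score of at least 50 and were used as present or absent. Extract protocols describe sorting at stages other than those sampled, so how cells were chosen is not given. Besides the members, named genes are at most 4 partners per comparison with the smallest adjusted p, those described being a selection, and the 3 genes closest to each member, of which those for Ocln are not reported here. The members and lists were chosen with earlier results of these data known. No 2 cell columns held identical counts.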

Additional observations from a re-analysis of the deposited data

Results flagged for a closer look

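In adult Pard3HMKO livers at d7, Tjp1 had 42.3 CPM in replicate 4, far above the other 5 libraries, and Cgn had 15.4 CPM in replicate 5, far below them. All 9 cells of replicate 4 and 19 of 27 in replicate 5 were marked, and a mark does not show that a cell is of another type. In replicates 1, 2, 3 and 6 the marked cells were 18 of 26, 27 of 31, 12 of 12 and 9 of 28. The part of marked cells in the values was not tested. With 18 sets of 4 to 10 libraries examined, chance sets apart about 1 in 20.

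The Pard3HMKO effect (difference in log2 fold change, edgeR adjusted p under 0.05) differed between E17.5 and E15.5 for Cldn1 (−0.87), Cldn2 (−6.88) and Cldn3 (−2.99). Between P14 and E19.5 it differed for Cldn1 (0.98), Cldn2 (3.30), Cldn3 (2.27) and Cdh1 (1.63). In culture the PD effect differed between Pard3HMKO and Pard3WT for Cldn1 (3.00) and Cdh1 (2.66), the U0126 effect for Cldn1 (3.09) and Cdh1 (2.40), and the PD effect between YapHMKO and YapWT for Cldn1 (4.66). In adults the change between d7 and d2 differed between Pard3HMKO and Pard3WT for Cldn1 (1.89), Cgn (1.63) and Cdh1 (2.90).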

How the results depend on the processing

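Of 468 pairs of a member and a comparison, 131 were called, and 56 of these stayed called in the same direction under each alternative run. DESeq2's test kept 131 of 131, DESeq2 size factors 130, no filter on low counts 129, every cell scaled to the same total 118, fits of only the compared libraries 107, and leaving out cells with markers of other types 73. Without those cells the called members were 7 against 30 in the in vivo lines, 7 of them shared, and 10 against 24 in adult livers, 8 of them shared. The shares of all genes called under these alternatives are not given here, so the counts do not set the members apart from other genes. Without the marked cells Cldn2 in adult Pard3WT changed sign, at −0.21 for d2 against d0 (adjusted p = 0.925) and 0.34 for d7 against d2 (adjusted p = 0.85). Without the filter the cultures gave 41 calls against 27, and peaks with a score of at least 100 gave 19 regions against 45. The cause was not tested. Leaving out 1 library at a time gave 4 to 6 calls for the age trend, 27 to 30 in vivo, 24 to 28 in cultures, 18 to 25 in adults, 28 to 32 across culture or adult and other stages, and 45 to 71 regions.

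Same-numbered libraries showed no common deviation across genes (correlations of −0.048 to 0.074). The labels do not say what a replicate number marks, so whether the numbers pair libraries is not known. A fit with the replicate number as a block gave 6, 29, 27, 23 and 30 calls in these 5 families, against 5, 30, 27, 24 and 30. Most groups hold 2 libraries, which limits the precision, and members near 0 reads rest on few counts.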
